A study of Sus scrofa with 15 samples.

Results

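The fatty acid binding proteins FABP1 to FABP7 were measured in pig kidney after remote ischemic preconditioning (IPC). Members were the genes of this family that had at least 1 probe on the porcine array, found by matching the transcript accession of each probe to a pig gene symbol in RefSeq. All 7 members had a probe. They account for 7 of the 3020 genes with a symbol and 22 of the 43603 probes on the array. The family was chosen by the signals of FABP7, whose values in the 3 groups stood out on these arrays, so FABP7 is described without a test, and FABP1 to FABP6 were tested.

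Kidney RNA came from 15 female Yorkshire pigs of a single age, with 5 pigs in each of 3 groups and 1 single-colour array per pig. Control pigs had no IPC and 90 min of warm ischemia of the right kidney. The rIPCe pigs had remote IPC, repeated clamping of an artery to the hind limb, just before 90 min of warm ischemia (the early window), and the rIPCl pigs had the same remote IPC with warm ischemia 24 hr later (the late window). Kidneys were taken after 72 hr. All 3 groups, the control group included, had the left kidney removed and the right kidney made ischemic, so no group here shows a kidney without injury. The comparisons ask how the transcript levels of the preconditioned kidneys differed from those of kidneys that had ischemia alone, and whether the early and late windows differed.

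Fatty acid binding proteins are small proteins of the cytoplasm that hold a long-chain fatty acid or another lipid inside a barrel of beta strands and carry it to mitochondria, lipid droplets, membranes or the nucleus. The members are named for the tissue where each was first found or is most abundant: liver (FABP1), intestine (FABP2), heart and muscle (FABP3), adipocytes (FABP4), epidermis (FABP5), ileum (FABP6) and brain (FABP7). The kidney tubule draws most of its energy from the oxidation of fatty acids, and FABP1 in urine is used as a marker of tubular injury in people.

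Values below are quantile-normalized log2 signals, a difference of 1 being a 2-fold change. A probe was taken as measured on an array where the scanner software marked its spot as well above background. A gene was represented by its probe of highest mean signal, and the other probes of each FABP gene are given beside it. Levels of different probes are not compared, since each probe has its own brightness. A call is a Benjamini-Hochberg adjusted p under 0.05 from limma over all probes. In a bulk tissue, fewer cells of a type and less RNA per cell cannot be told apart.

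Spots well above background made up 62.16% to 69.55% of a control array, 67.38% to 73.92% of an rIPCe array and 71.79% to 74.22% of an rIPCl array, so faint probes were more often measured in the rIPCl group. The 15 arrays lay on 4 slides. Slide 1 held 4 control arrays. Slide 2 held 1 control and 3 rIPCe arrays, slide 3 held 2 rIPCe and 1 rIPCl arrays, and slide 4 held 4 rIPCl arrays. Control and rIPCl arrays shared no slide, and a comparison between them with slide in the model runs through the rIPCe arrays of slides 2 and 3.

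FABP7, the brain type, carries very long chain polyunsaturated fatty acids and is known from radial glia and astrocytes. Its single probe, A_72_P146656, gave log2 signals of 3.38, 3.26, 4.49, 3.34 and 3.64 on control arrays 1 to 5. On rIPCe arrays 1 to 5 the signals were 1.85, 7.40, 6.23, 3.91 and 5.69. On rIPCl arrays 1 to 5 they were 6.25, 7.19, 6.51, 7.63 and 6.59. All 5 rIPCl arrays lay above all 5 control arrays, whereas the rIPCe arrays were spread from below the lowest control array to within the range of rIPCl. Among the 43519 probes without a missing value that were compared in this way, the groups did not overlap for 9.48%.

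The group means of FABP7 were 3.62 ± 0.50 in control, 5.01 ± 2.17 in rIPCe and 6.83 ± 0.56 in rIPCl (SD, n = 5). The log2 difference between rIPCl and control was 3.21 ± 0.78 (SE of the fit) from the signals as read. With each of the 4 control arrays that were not above background set to no less than its lowest signal well above background, the control mean was 4.24 and the rIPCl signal was 6.03-fold higher. This is not a strict lower bound, since spots not well above background can read higher than that floor. On control array 2 the floor was 4.24, and an FABP4 probe not well above background read 4.52. The difference as read was 1.39 ± 0.78 between rIPCe and control and 1.82 ± 0.78 between rIPCl and rIPCe. With the same floors on the control arrays only, the rIPCe signal was 1.71-fold higher than control. The rIPCe mean was there left as read. It held rIPCe array 1 at 1.85, not well above background and below that array's floor of 3.83. Leaving out any 1 array kept the rIPCl and control difference between 3.01 and 3.43. The rIPCe difference rested on single arrays: it was 2.18 without rIPCe array 1, the lowest of all 15, and 0.80 without rIPCe array 2, the highest of its group. The difference between rIPCl and rIPCe was 1.03 without rIPCe array 1.

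**Figure D1:**
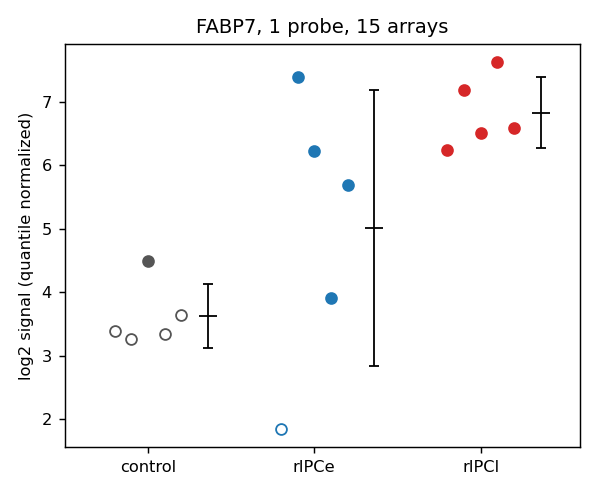
FABP7 signal on each of the 15 arrays. Points are quantile-normalized log2 signals in array order 1 to 5 within each group, filled where the spot was well above background and open where it was not, and the black bars are the group mean and SD (n = 5). The rIPCl points lie between 6.25 and 7.63, above the highest control point at 4.49, and the rIPCe points run from 1.85 to 7.40.

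FABP7 was faint, and its detection followed the groups. It was well above background on 1 of 5 control arrays (array 3), 4 of 5 rIPCe arrays and 5 of 5 rIPCl arrays, so most of the control values are near the background of their array. Before normalization the processed signals were 9.31 to 18.7 in control, 3.96 to 224 in rIPCe and 59.0 to 210 in rIPCl. In all, 801 probes, or 1.84% of the array, were well above background on at most 1 control array and on all 5 rIPCl arrays, and 78 of them had a gene symbol. With another background correction that adds an offset of 50 to every signal, the rIPCl and control difference of FABP7 was 0.93 on the log2 scale.

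Where groups shared a slide, 1 of the groups had a single array. On slide 2 the 3 rIPCe arrays averaged 1.52 log2 units above the control array, with rIPCe array 1 below it and arrays 2 and 3 above it, and on slide 3 the rIPCl array lay 1.45 above the 2 rIPCe arrays. With slide as a block in the model, the rIPCl and control difference was 2.97. Group accounted for 55.09% of the variance of FABP7 over the arrays and slide for 49.67%, shares that overlap because most slides hold mainly 1 group.

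Markers of the cells in which FABP7 is best known were measured in part. Of 12 genes fixed as glia and neural crest markers, 5 had a probe. Of these, 2 were above background on all 15 arrays, and GFAP of astrocytes and SOX2 of neural progenitors on 0 of 15. All 5 had a higher mean than control in rIPCl and in rIPCe, where 54.1% and 51.3% of all probes were lower. The unadjusted limma p was under 0.05 for 2 of the 5 in rIPCl (26.8% of all probes) and for 1 in rIPCe (14.1%). SOX10, of Schwann cells and oligodendrocytes, had a rIPCl and control difference of 0.50. The summed signal of the 5 markers ran from 256 to 506 in control, 301 to 458 in rIPCe and 308 to 506 in rIPCl. In any comparison 0 of the 5 were called, against 6.27% of all probes in rIPCl versus control. The part of glial RNA in the FABP7 signal was not tested.

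The genes whose signal followed FABP7 most closely over the 15 arrays were TOMM34 (Pearson r = 0.90), MGP (0.89), C3 (0.89), NME4 (0.87) and RPS16 (0.87), out of 2562 genes well above background on every array of at least 1 group. The 15 points share the group structure, and with group means removed r was 0.80, 0.79, 0.74, 0.77 and 0.69. The spread of FABP7 within groups lay mostly in rIPCe (SD 2.17, against 0.50 in control and 0.56 in rIPCl). The 5 genes were also picked by r with these same values. MGP, matrix Gla protein, an inhibitor of calcification, stood at 14.36, 14.48, 14.93, 14.22 and 15.31 on the control arrays and at 14.24, 17.07, 17.34, 15.84 and 15.98 on the rIPCe arrays. Its rIPCl arrays stood at 17.01, 16.12, 16.75, 17.01 and 17.39. For MGP, rIPCe array 1 was at the level of the control arrays and rIPCe arrays 2 and 3 were at the level of rIPCl. C3, the central component of complement, had its lowest rIPCe signal on array 1 as well, 9.18 against 10.48 to 11.44 on the other rIPCe arrays, and its rIPCl arrays lay from 11.85 to 12.35. TOMM34, a chaperone-binding protein of mitochondrial import, was 10.68 on rIPCe array 1 and 11.02 to 11.53 on the other rIPCe arrays.

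SOX9, a transcription factor of tubule cells under repair, was above background on as many arrays of each group as FABP7, though not the same arrays: 1 control array (array 1), 4 rIPCe arrays (all but array 5) and 5 rIPCl arrays, with a log2 difference of 2.50 between rIPCl and control that was not called (adjusted p = 0.0597). Its rIPCl signals ran from 4.82 to 6.15, and 1 control array, at 5.25, lay within that range. Of the 6 measured genes of the tubular injury and repair list, 5 had a higher mean in rIPCl than in control and 1 a lower one. Over all probes 54.1% were lower. The summed signal of the 6 genes ran from 93703 to 319490 in control, 128727 to 434422 in rIPCe and 245575 to 344059 in rIPCl. Only VCAM1 (1.57) and CLU (2.02) were called, both higher in rIPCl, against 2.69% of all probes. Both calls ended with slide as a random block, as did those of all other probes. The part of injured or repairing tubule cells in the FABP7 signal was not tested.

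FABP1 to FABP6 gave no call. In rIPCl versus control limma's adjusted p was under 0.05 for 0 of the 6 genes, against 6.27% of all probes, and the unadjusted p for 1, against 26.8% of all probes. The methods' t-test called 0 after adjustment (3.55% of all probes) and had 2 below that level before it (26.5%). In rIPCe versus control limma called 0 of 6, against 0.00229% of all probes, and the unadjusted p was under 0.05 for 0, against 14.1%. The methods' t-test gave 0 before adjustment (12.4% of all probes) and 0 after it (0.00229%). In rIPCl versus rIPCe limma called 0 of 6, against 0% of all probes, and the unadjusted p was under 0.05 for 0, against 3.85%. Here the methods' t-test gave 0 before adjustment (4.23% of all probes) and 0 after it (0.00459%). The study's own criteria were a fold change of at least 2 with an unadjusted p under 0.05. By limma, FABP2 alone met them, in rIPCl versus control, where 5.83% of all probes did, and 0 of 6 met them in rIPCe versus control (2.18% of all probes) or in rIPCl versus rIPCe (0.525%).

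**Figure D2:**
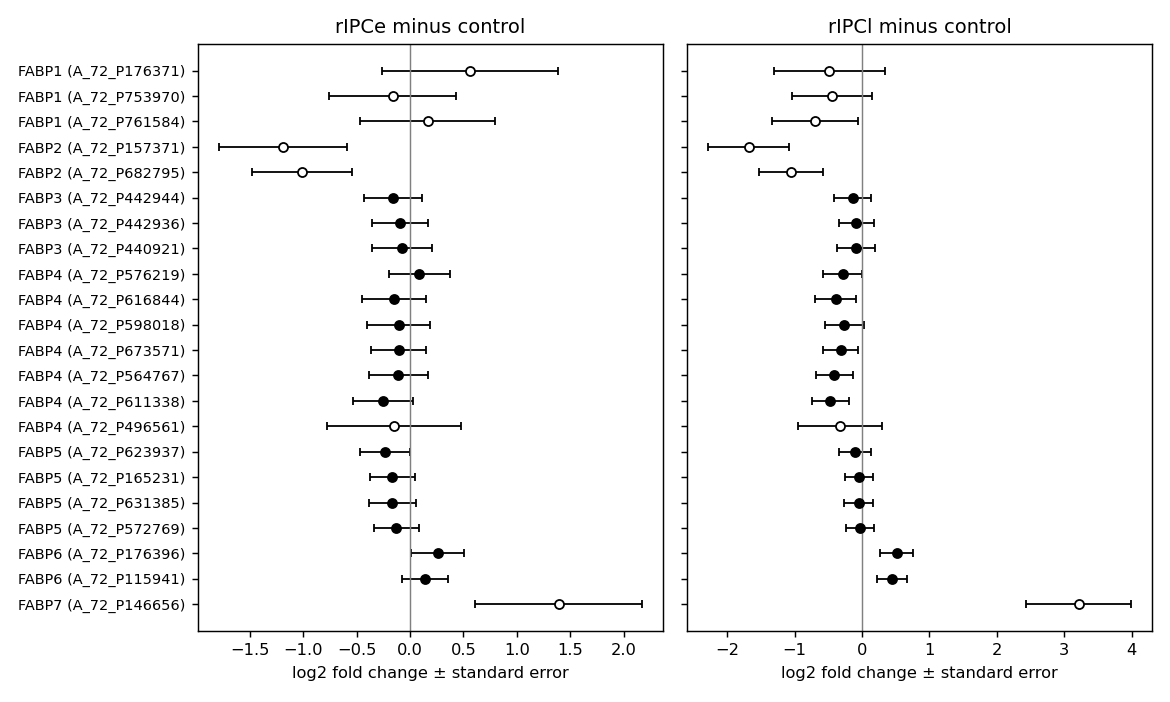
Log2 fold changes of all 22 FABP probes. Each point is the difference of group means in rIPCe minus control (left) or rIPCl minus control (right) with its standard error, filled where the probe was well above background on all 15 arrays. FABP7 stands at 3.21 in rIPCl, while every filled point lies between -0.47 and 0.51.

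FABP3, the heart type, brings fatty acids to the mitochondria of muscle and is also made in kidney tubules. Each of its 3 probes was measured on all 15 arrays. The brightest, A_72_P442944, stood at 14.72, 14.58, 14.45, 14.83 and 14.02 on the control arrays and at 14.00, 14.87, 14.09, 14.35 and 14.50 on the rIPCe arrays. The rIPCl arrays stood at 15.30, 14.43, 13.55, 14.12 and 14.51. The highest and the lowest of the 15 arrays were thus both in rIPCl, and the groups overlapped throughout. The rIPCl and control difference was -0.14 ± 0.28 (SE), with a 95% interval of -0.73 to 0.45 and a limma adjusted p of 0.785. The rIPCe and control difference was -0.16 (95% interval -0.75 to 0.43). The 3 probes followed each other with r from 0.986 to 0.994 over the arrays, so rIPCl array 1 was high and rIPCl array 3 low on each of them. On slide 3 the rIPCl array lay 0.88 above the rIPCe arrays, and with slide as a block the rIPCl and control difference turned to 1.17 (adjusted p = 0.416 by limma).

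FABP5, the epidermal type, binds fatty acids and retinoic acid and occurs in many epithelia, endothelium and macrophages. Each of the 4 probes was measured on all arrays. The brightest, A_72_P623937, stood at 15.36, 14.77, 14.90, 15.91 and 14.78 in control, 15.49, 15.00, 14.52, 14.78 and 14.78 in rIPCe, and 15.14, 14.58, 15.08, 15.30 and 15.09 in rIPCl. Control array 4 was the highest of the 15, and the groups overlapped. The rIPCl and control difference was -0.11 ± 0.24 (SE), with a 95% interval of -0.61 to 0.40 and a limma adjusted p of 0.810. In rIPCe it was -0.23 (95% interval -0.74 to 0.28). The other 3 probes gave rIPCl and control differences of -0.02 to -0.05. Without control array 4 the difference of the brightest probe was 0.09, the opposite sign.

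FABP4, the adipocyte type, is a marker of fat cells and is also made by macrophages and by capillary endothelium. The array holds 7 FABP4 probes, and 6 were well above background on all arrays. The brightest, A_72_P576219, stood at 11.61, 12.53, 12.15, 11.90 and 11.61 in control, 12.09, 11.97, 11.18, 12.94 and 12.05 in rIPCe, and 11.63, 11.50, 12.18, 11.88 and 11.18 in rIPCl. Both the highest array and 1 of the 2 lowest were in rIPCe. Between rIPCl and control it differed by -0.29 ± 0.29 (SE), with a 95% interval of -0.90 to 0.33 and a limma adjusted p of 0.553. Over the 7 probes it ran from -0.26 to -0.47, with 0 of 7 called. In rIPCe the brightest probe gave 0.09 and the other 6 gave values from -0.25 to -0.11. The faint 7th probe, A_72_P496561, was above background on 9 of 15 arrays and held a single high value, 7.20 on control array 1, where the brightest probe was among the lower ones.

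Markers of the cell types in which FABP4 is known were measured beside it. Of 8 measured macrophage markers, 7 were higher in rIPCl than in control and 4 were called, namely C1QA (1.65), C1QB (1.55), C1QC (1.45) and the mannose receptor MRC1 (1.01). Over all probes 54.1% were lower and 2.69% were called higher. With slide as a random block 0 of the 8 were called and 8 were higher. Their summed signal was 8693 to 25686 in control, 13091 to 23662 in rIPCe and 14864 to 38693 in rIPCl. Of 5 measured endothelial markers 1 was called higher, against 2.69% of all probes. The summed signal of these 5 ran from 16066 to 23527 in control and from 16267 to 25309 in rIPCl. Of 8 measured adipocyte markers 1 was called lower and 0 higher, against 3.58% and 2.69% of all probes. Above background on all 15 arrays were 5 of the 8, LEP and LIPE among them, while ADIPOQ and PLIN1 were faint. The brighter ADIPOQ probe was above background on 0 control arrays and on all rIPCe and rIPCl arrays. It differed from control by 0.66 in rIPCl and 0.64 in rIPCe, but the other ADIPOQ probe gave -0.49 and -0.26. PLIN1 was above background on 1 array in all. The part of these cell types in the FABP4 signal was not tested.

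**Figure D3:**
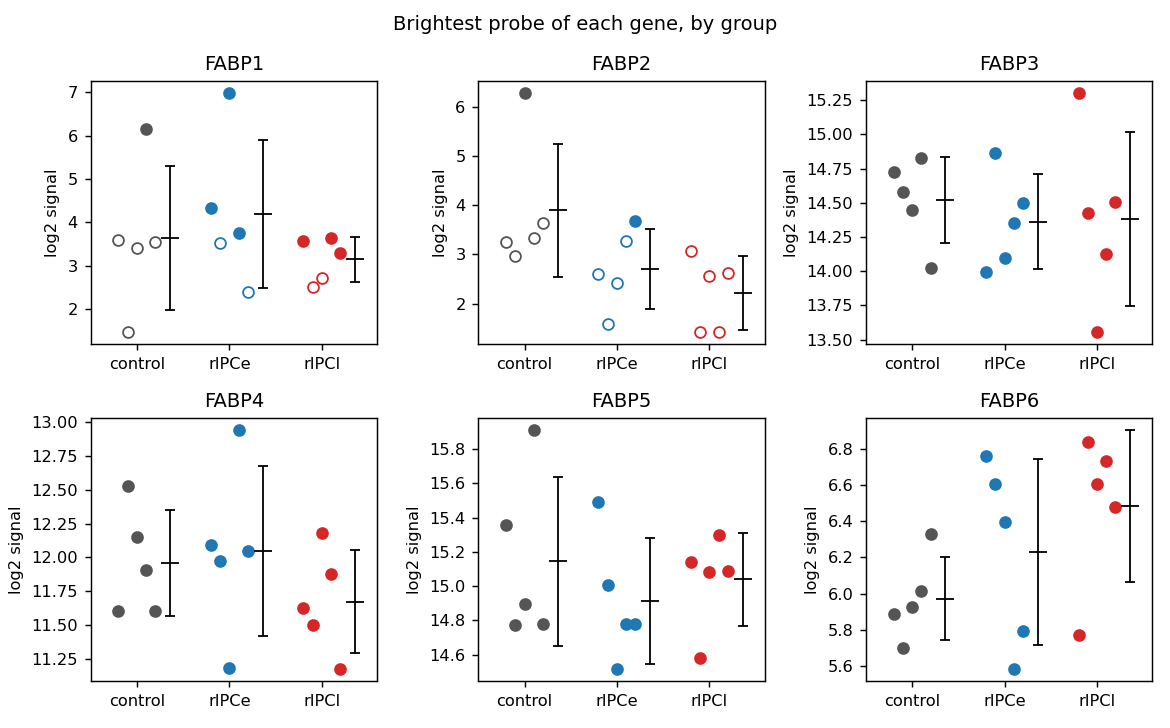
FABP1 to FABP6 by group, each by its brightest probe. Points are quantile-normalized log2 signals in array order 1 to 5, filled where well above background and open where not, and the black bars are the group mean and SD (n = 5). The groups overlap in each panel, and FABP1 and FABP2 are faint with single high arrays. Each panel has its own signal axis, which does not start at 0.

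FABP6, the ileal type or gastrotropin, binds bile acids in the cells that take them up from the gut. Both of its probes were above background on all arrays. The brighter, A_72_P176396, stood at 5.89, 5.70, 5.93, 6.01 and 6.33 in control, 6.76, 6.61, 6.39, 5.58 and 5.79 in rIPCe, and 5.77, 6.84, 6.61, 6.73 and 6.48 in rIPCl. Of the rIPCl arrays 4 of 5 lay above all control arrays, and rIPCl array 1 lay within the control range. The rIPCl and control difference was 0.51 ± 0.25 (SE), a 1.43-fold higher signal, with a 95% interval of -0.02 to 1.04, a limma adjusted p of 0.20 and a two-sided exact permutation p of 0.0556. The other probe, A_72_P115941, gave 0.44 ± 0.22. Without rIPCl array 1 the difference was 0.69 (adjusted p = 0.0653).

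The FABP6 values lay by slide more than by group. On slide 1 the 4 control arrays ran from 5.70 to 6.01. On slide 2 the control array was at 6.33 and the rIPCe arrays at 6.39 to 6.76. On slide 3 the rIPCe arrays were at 5.58 and 5.79 and the rIPCl array at 5.77, and on slide 4 the rIPCl arrays ran from 6.48 to 6.84. The 2 rIPCe arrays and the rIPCl array of slide 3 thus lay below the control array of slide 2, and the rIPCe arrays fell into separate ranges on their 2 slides. Slide accounted for 89.66% of the variance of this probe and 86.41% of that of the other, and group for 24.96% and 25.31%.

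Over the 25828 probes measured on all arrays, slide accounted for a median of 42.79% of the variance, with a 90th percentile of 74.7%. A share at least as high as that of the brighter FABP6 probe was found for 634 of them (2.45%). Within slide 2 the rIPCe arrays averaged 0.26 above the control array, and within slide 3 the rIPCl array lay 0.08 above the rIPCe arrays. With slide as a block the rIPCl and control difference of FABP6 was 0.35 ± 0.28 (SE, limma adjusted p = 0.663). For 4 of the 7 members (FABP1, FABP3, FABP4 and FABP5) slide accounted for less than the array median, at 12.92% to 34.27% of the variance of the brightest probe. Of 14 genes of bile acid handling, the setting in which FABP6 works, 4 had a probe. In rIPCl versus control 0 of the 4 were called, against 6.27% of all probes.

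**Figure D4:**
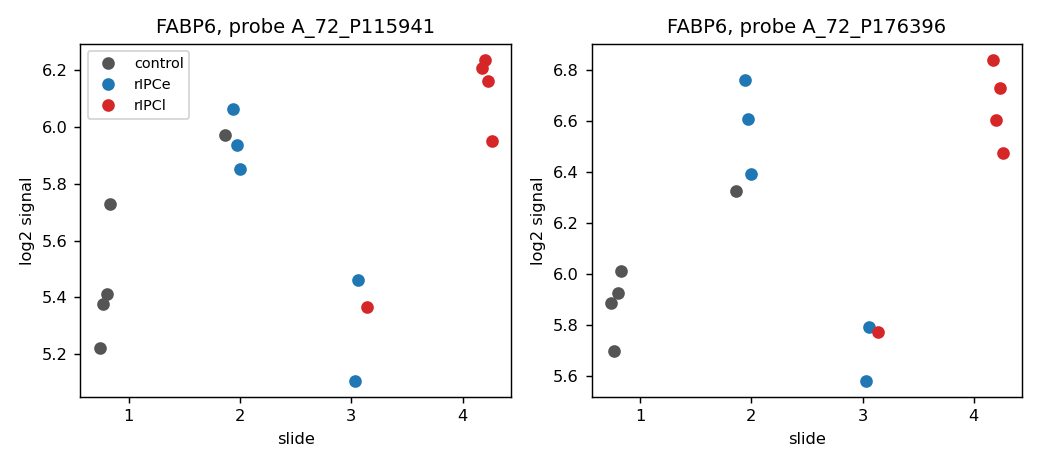
FABP6 signal by slide for both probes. Points are quantile-normalized log2 signals of single arrays, placed by the slide they were on and coloured by group. Slide 3, with 2 rIPCe arrays and 1 rIPCl array, lies at 5.58 to 5.79 on the brighter probe (right), and slide 4, with rIPCl arrays only, at 6.48 to 6.84. The signal axes do not start at 0.

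FABP1, the liver type, is made in the proximal tubule of the human kidney. On these arrays it was near background. Its 3 probes were well above background on 7, 6 and 3 of 15 arrays. The brightest, A_72_P176371, stood at 3.59, 1.47, 3.41, 6.14 and 3.56 in control, 4.33, 3.52, 6.98, 3.76 and 2.39 in rIPCe, and 3.58, 2.52, 2.71, 3.64 and 3.30 in rIPCl. Control array 4 and rIPCe array 3 stood well above the other arrays. Control array 4 was also the highest control array on the other 2 probes, at 6.35 and 5.86, but rIPCe array 3 was at 3.55 and 3.12 there, so the high value of that array was seen on 1 probe of 3. FABP1 differed between rIPCl and control by -0.48 ± 0.83 (SE), with a 95% interval of -2.26 to 1.29 and a limma adjusted p of 0.744. Without control array 4 it was 0.14.

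FABP2, the intestinal type, carries dietary fatty acids in enterocytes. Its brighter probe, A_72_P157371, was above background on 2 of 15 arrays. The signals were 3.25, 2.96, 6.30, 3.34 and 3.64 in control, 2.61, 1.57, 2.42, 3.27 and 3.68 in rIPCe, and 3.07, 1.41, 2.56, 1.42 and 2.63 in rIPCl. Control array 3 stood apart, and the other control arrays were not above background. FABP2 differed between rIPCl and control by -1.68 ± 0.60 (SE), with a limma adjusted p of 0.0962 and a two-sided exact permutation p of 0.0159 (0.286 after adjustment over the 18 tests of 6 genes in 3 comparisons). FABP2 was not well above background on any rIPCl array, so the rIPCl mean was also taken with each array set to no less than its lowest signal well above background. On that basis, with the control arrays left as read, the control signal was 1.49-fold higher, which, as for FABP7, is not a strict lower bound. Control array 3 was the only control array above background. Without it the difference as read was -1.08. The control mean as read was then 3.30, against the limited rIPCl mean of 3.32. That comparison cannot show whether a difference remained, since control arrays not above background were left as read while rIPCl was raised to its floors. The other probe was above background on control array 3 only, at 4.01, and its rIPCl mean was 1.41.

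The other genes that take up, burn, store or sense fatty acids were taken from lists of 124 genes, of which 72 were measured. In rIPCl versus control 9 of the 72 were called, 2 higher and 7 lower, and 25 had an unadjusted p under 0.05. The called share was 12.5%, against 6.27% of all probes (2.69% higher and 3.58% lower) and 9.5% of the 3020 genes with a symbol. The split moved with the scaling: with each array's 75th percentile subtracted 2 were called higher and 13 lower, and with no normalization between arrays 0 and 9. Over all probes 42.9% of the calls were higher as reported, 27.9% with the 75th percentile and 8.12% without normalization, where the median probe had shifted by -0.11 and -0.24. In rIPCe versus control and in rIPCl versus rIPCe 0 of 72 were called by limma, with 14 and 3 at an unadjusted p under 0.05. By the methods' t-test 4 were called in rIPCl versus control. With slide as a random block, with an estimated correlation of 0.228, 0 of the 72 and 0 of all 43603 probes were called, and the 9 genes had adjusted p values from 0.222 to 0.250. The count moved with single arrays: it was 0 without rIPCl array 4 or 5, 1 without rIPCl array 3 or control array 2, 2 without control array 3, 5 without control array 4 or rIPCl array 2, and 15 without rIPCl array 1.

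Most genes of fatty acid oxidation had a lower mean in the late window. Of 19 measured, 17 had a lower mean in rIPCl than in control and 4 were called, all lower, with a median log2 difference of -0.56. Over all probes the median was -0.03, 54.1% were lower, and 3.58% were called lower. Under the other scalings and with slide in the model 17 or 18 of the 19 were lower, and with slide as a block or a random block 0 of the 19 were called. The number called was also 0 without control array 2 or rIPCl array 3, 4 or 5, 1 without control array 3, 2 without control array 4 or rIPCl array 2, 6 without rIPCl array 1 and 7 without control array 1. CPT2, which releases acyl groups from carnitine inside the mitochondrion, fell by 1.37 ± 0.28 (SE, limma adjusted p = 0.0244). All 5 rIPCl arrays (6.64 to 7.84) lay below all 5 control arrays (8.11 to 9.32), as did all 5 rIPCe arrays (7.02 to 8.03). Between rIPCl and control the groups did not overlap for 9.48% of all probes compared. With slide as a block the difference of CPT2 was -0.67 (limma adjusted p = 0.795). ACADM, the medium-chain acyl-CoA dehydrogenase, fell by 0.85 ± 0.19 (limma adjusted p = 0.0293). Its rIPCl arrays stood at 13.44 to 14.10, its rIPCe arrays at 13.88 to 14.52 and its control arrays at 14.38 to 15.21. DECR1, needed for unsaturated fatty acids, fell by 0.56 ± 0.14 (limma adjusted p = 0.0339) by its brightest probe. Its other 2 probes gave -0.37 and -0.15, and the mean over its probes was not called (limma adjusted p = 0.0913).

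SCP2, a thiolase and lipid carrier of peroxisomes, fell by 1.58 ± 0.40 (limma adjusted p = 0.0394). Its control arrays ran from 7.47 to 10.25, and 1 of 5 rIPCl arrays lay below all of them. In rIPCe versus control 16 of the 19 oxidation genes had a lower mean and 0 were called, with a median of -0.21 against -0.01 over all probes. CPT1A, the gate of mitochondrial uptake, stood at -0.59 in rIPCl (limma adjusted p = 0.238), with its other 5 probes between -1.33 and -0.60.

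The proximal tubule oxidises much of the fatty acid used by the kidney. Of 10 measured proximal tubule markers, 9 had a lower mean in rIPCl than in control, 1 (GATM, at 1.05) a higher one, and 0 were called, with a median of -0.53. Over all probes 54.1% were lower, 6.27% were called and the median was -0.03. The summed signal of the 10 markers ran from 140484 to 439928 in control, from 142572 to 384997 in rIPCe and from 126294 to 350440 in rIPCl. The part of proximal tubule content in the lower oxidation genes was not tested.

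**Figure D5:**
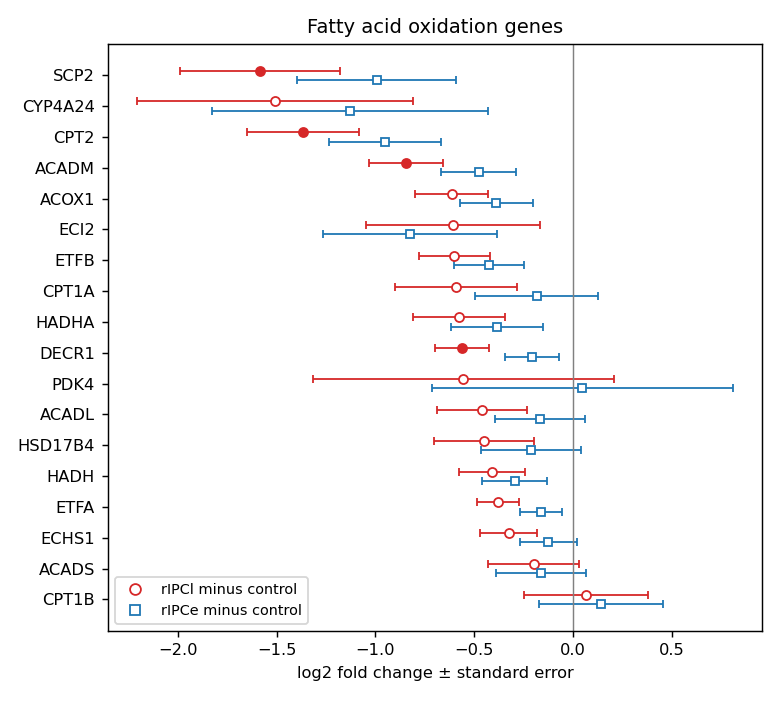
Fatty acid oxidation genes, 18 of the 19 measured. Points are log2 fold changes against control with their standard errors, red circles for rIPCl and blue squares for rIPCe, filled where the adjusted limma p was under 0.05. In rIPCl 17 of the 18 points lie below 0 and 4 are filled, and in rIPCe 16 of the 18 lie below 0 and 0 are filled.

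Among 9 measured genes of uptake and activation, DBI, the acyl-CoA binding protein that holds activated fatty acids in the cytoplasm, fell by 1.09 ± 0.25 (limma adjusted p = 0.0313). All rIPCl arrays and 4 of the rIPCe arrays lay below all control arrays. The rIPCl and control groups did not overlap for 9.48% of all probes compared. With slide as a block the difference of DBI was -0.13 (adjusted p = 0.981 by limma), and with slide as a random block its call was lost (adjusted p = 0.250). The fatty acid transporter SLC27A1 rose by 0.54 ± 0.15 (limma adjusted p = 0.0480), with its other 2 probes at 0.37 and 0.44 and no call on the mean of its probes (limma adjusted p = 0.0634). CD36, the scavenger receptor that brings fatty acids across the membrane, had a difference of 0.00 (95% interval -0.57 to 0.58). The probes of ACSL1, which activates fatty acids to acyl-CoA, disagreed: the brightest gave 0.57 and the other 2 gave -1.47 and -1.26.

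Among 23 measured genes of synthesis and storage, both fat storage-inducing transmembrane proteins, which help lipid droplets to form, were called lower. FITM2 fell by 1.32 ± 0.23 (limma adjusted p = 0.0207) and FITM1 by 1.09 ± 0.25 (limma adjusted p = 0.0318). With slide as a block the differences were -0.31 for FITM2 (adjusted p = 0.897 by limma) and -2.25 for FITM1 (adjusted p = 0.148), and with normexp FITM2 stood at -0.44. PLIN2, which coats lipid droplets, had a difference of -1.39 (limma adjusted p = 0.109). Of 10 measured nuclear receptors and regulators, which sense the fatty acids that FABPs deliver, 9 had a higher mean in rIPCl and 0 were called. Over all probes 54.1% were lower and 6.27% were called. Without normalization between arrays 6 of the 10 were higher, and with slide as a block 5. PPARA differed by 0.11 (95% interval -0.40 to 0.61), PPARG by -0.33 (-0.75 to 0.10) and the coactivator PPARGC1A by 0.01 (-0.53 to 0.56).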

How the data were processed

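RNA of 15 pig kidneys was hybridised to single-colour porcine arrays. The authors deposited scanner output from Agilent Feature Extraction 11.0.1.1 and a value table. The deposited intensities, per the file headers, had their background removed and were detrended by the software, array by array, without normalization between arrays, and the deposited table equals the processed signals for all 43603 probes. The log2 transformation and quantile normalization over 15 arrays, named in the methods, were done here, with control and outlier spots left out and spots of a probe averaged. Group means of the 3 groups were fitted with limma 3.58.1 (R 4.3.3) over all probes. FABP1 to FABP6 were also compared by two-sided exact permutation over all assignments of 10 arrays to the groups. Pigs, not repeat hybridisations, are the replicates, and their number limits the precision. The members, the gene lists and the rule for named genes (called genes if at most 4 per list, otherwise the 4 of largest fold; main regulators; the 5 genes most like FABP7; at most 3 or 4 markers per list) were chosen with earlier results of these data known. Symbols came from RefSeq (6686 probes). The pipeline was tested on simulated data. No probe sequences or positions are shown, since the files used here give none. Alternatives were other normalizations, background correction, a filter on faint probes, replicate and slide blocks, the methods' t-test, other moderation and leaving out arrays. Some genes of these lists that enter the counts are not reported here by themselves.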

Additional observations from a re-analysis of the deposited data

Results flagged for a closer look

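FABP2 on control array 3, at a log2 signal of 6.30, lay far from the other 4 control arrays, which ran from 2.96 to 3.64, further than a test for single outliers at the 95% level allows. It was 1 of 21 groups of 5 values examined over the 7 members, and chance gives about 1 in 20. The other FABP2 probe was also highest in the control group on that array, at 4.01, with control array 5 at 3.90.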

How the results depend on the processing

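FABP1 to FABP6 gave 0 calls in each comparison under every alternative run. The rIPCl and control difference kept its direction in all 24 alternatives for FABP4, FABP6 and FABP7. FABP7 ran from 0.93 to 3.43 and stood at 0.93 with normexp (offset 50) on the median signal, an alternative chosen after seeing the data because the planned mean signal was not in the files used here. The number of fatty acid genes called in rIPCl versus control, 9 as reported, was 15 with each array's 75th percentile subtracted, 4 with the methods' t-test, and 0 with slide as a block, with slide as a random block, and without control arrays 3 and 4 together (also chosen after seeing the data). Leaving out 1 array it ran from 0 to 15, and in rIPCe versus control from 0 to 1. The same numbers do not pair pigs (correlations from -0.43 to 0.21), and with replicate number as a block 6 fatty acid genes, 0 FABP genes and a FABP7 difference of 3.21 were found. All probes numbered 2736 calls in rIPCl versus control as reported, 7728 with the 75th percentile, 987 with the replicate block, 479 with the slide block and 0 with slide as a random block.

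Signs turned for differences near 0, and also for larger ones of the faint FABP1 and FABP2. As reported, FABP2 stood at -1.68 in rIPCl and -1.19 in rIPCe against control. FABP1 stood at -0.48 in rIPCl versus control and -1.05 in rIPCl versus rIPCe. In rIPCl versus control, slide as a block gave 1.89 for FABP1, 1.17 for FABP3 and 0.59 for FABP5, slide as a random block 0.056 for FABP3, normexp 0.022 for FABP2, and without control arrays 3 and 4 FABP1 was 0.28 and FABP5 0.068. In rIPCe versus control, slide as a block and slide 2 alone gave 0.30 for FABP3 and 0.22 for FABP5, normexp 0.047 for FABP2, and the mean of all probes -0.11 for FABP4. In rIPCl versus rIPCe, slide as a block and slide 3 alone gave 0.50 for FABP1, no normalization -0.12 for FABP3 and -0.023 for FABP5, and normexp -0.0050 for FABP3. Leaving out 1 array, the rIPCl and control difference ran from -1.02 to 0.14 for FABP1, -0.37 to 0.069 for FABP3 and -0.20 to 0.086 for FABP5. The rIPCe and control difference ran from -0.13 to 1.19 for FABP1 and -0.14 to 0.30 for FABP4, and the rIPCl and rIPCe difference from -0.21 to 0.23 for FABP3. The causes of these shifts were not tested. Signal over background limits FABP1, FABP2 and, in control, FABP7.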
